A study of Mus musculus with 4 samples.

Results

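Prostaglandins and leukotrienes are lipid mediators made from arachidonic acid, which phospholipases A2 release from membranes. The cyclooxygenases Ptgs1 and Ptgs2 turn it into prostaglandin H2, and terminal synthases make PGE2 (Ptges), PGD2 (Ptgds) or prostacyclin (Ptgis) from that intermediate. Hpgd, 15-hydroxyprostaglandin dehydrogenase, starts the inactivation of PGE2, and Ptger2 and Ptger4 encode its EP2 and EP4 receptors, which signal through cAMP. Alox5, 5-lipoxygenase, begins leukotriene synthesis together with its helper protein, encoded by Alox5ap. In leukocytes Ptgs1 is generally expressed steadily, whereas Ptgs2 is induced by inflammatory stimuli.

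The 10 genes Ptgs1, Ptgs2, Ptges, Ptgds, Ptgis, Hpgd, Ptger2, Ptger4, Alox5 and Alox5ap were taken by symbol from the 38087 genes of the deposited reads table. Each symbol matched 1 row, and 9 of the 10 passed the filter on low counts; Ptgds did not. The members were selected on their roles with the KO and WT reads of this same comparison already known, among them those of Ptgs2, so their fold changes are given as a description without p-values.

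The 4 libraries came from C57BL/6 mice at postnatal week 20. The Becn1-M-KO group (KO below, n = 2) lacks Becn1, the gene of the autophagy protein Beclin-1, in myeloid cells. The series title calls its samples B cell lymphomas, while the sample labels give cervical lymph node as the tissue of all 4 libraries. The WT group (n = 2) is wild type. Genotype and tumour therefore cannot be told apart, and the labels do not name the Cre driver or say that the samples of a group are separate animals, so the spread between them may be technical. Becn1 itself had 49.5 and 53.3 CPM (reads scaled to library size) in KO, against 54.8 and 63.4 CPM in WT, and its log2 fold change of −0.20 (SE 0.21, edgeR adjusted p = 0.557) was not called; cells other than myeloid ones keep the gene, so its level in whole tissue is a weak check of the label.

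The libraries held 15604247 and 20067004 reads in KO and 16141605 and 17874699 reads in WT. WT replicate 1 stood apart: markers of B cells summed to 2655 and 2549 CPM of the library total in KO, against 15.7 in WT replicate 1 and 1561 in WT replicate 2. T cell markers summed to 496 and 475 in KO, and to 4.65 and 648 in WT replicates 1 and 2. Markers of salivary and other epithelium summed to 30.2 and 40.9 in KO, against 1553 and 1300 in WT, with Krt8 and Aqp5 at 0 in KO replicate 1. All 8 of these markers were lower in both KO libraries than in both WT libraries, and 4 of them passed the adjusted p threshold given below. Genotype and the content of epithelium therefore cannot be told apart. Sex may go with the groups as well, for which the values of the Y-linked gene Eif2s3y are given below. WT replicate 1 thus had few reads of the lymphocytes that its label implies. The fold changes of the members, and of the further genes called, are therefore also given against each WT library alone. In whole tissue, fewer cells of a type and less RNA per cell cannot be told apart.

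Levels below are CPM scaled with trimmed-mean (TMM) factors, and fold changes are log2, KO over WT, with their standard error (SE), unless another unit is named. In edgeR's quasi-likelihood test over all 20695 genes tested, 3.22% were called at an adjusted p (Benjamini-Hochberg) below 0.05, 1.04% higher and 2.18% lower in KO. Of the 9 members tested, 1 (Ptgs2) was past that threshold in the higher direction and 0 in the lower. Fits with a library left out leave 1 library in a group, so no counts of members past the threshold are given for them. Since the reads behind these counts were known when the members were selected, the counts describe the fit and are no test of the members. On the TMM scale, both KO libraries lay above both WT libraries for 3 members (34.3% of all genes tested) and below them for 3 (33.3%). The median fold change was 0.43 over these 9 genes and 0.01 over all genes tested.

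**Figure D1:**
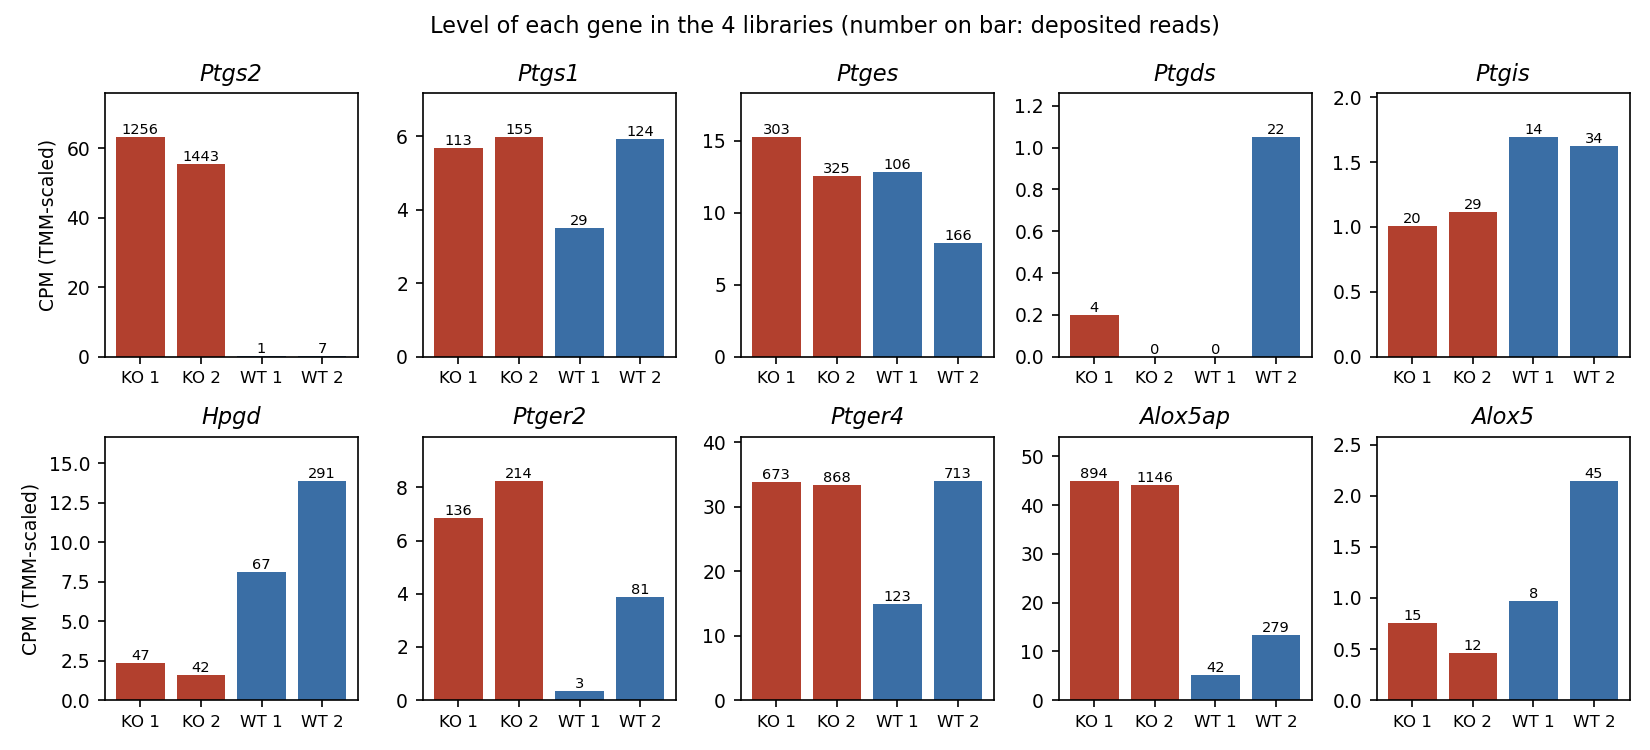
Bars give the TMM-scaled CPM of each of the 10 genes in KO libraries 1 and 2 (red) and WT libraries 1 and 2 (blue), on axes that start at 0 and differ between panels, with the deposited read number above each bar. Ptgs2 reached 63.2 and 55.6 CPM in KO, against 0.121 and 0.334 CPM in WT, whereas the bars of Ptgs1, Ptges and Ptger4 overlap between the groups. In CPM of the library total, Ptgs1, Ptges and Ptger4 were higher in both KO libraries than in both WT libraries.

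The pair of cyclooxygenase genes differed in how they moved. Ptgs2, on chromosome 1 from 150100124 to 150108010 (mm10, plus strand), had 1256 and 1443 reads in KO, against 1 and 7 reads in WT. The level was 59.4 ± 5.36 CPM in KO and 0.227 ± 0.151 CPM in WT (SD, n = 2 each). Both KO libraries were far above both WT libraries (log2 fold change 7.80, SE 0.45). Against WT replicate 2 alone the value was 7.45, and against WT replicate 1 alone, with its 1 read, it was 8.85. From summed reads scaled by the TMM library sizes, the KO level was 216 times the WT level, with a 95% exact interval of 109 to 500 that covers counting error only.

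Ptgs1, on chromosome 2 from 36230426 to 36252272 (plus strand), had 113 and 155 reads in KO, against 29 and 124 reads in WT. The level was 5.83 ± 0.204 CPM in KO and 4.71 ± 1.71 CPM in WT, with a fold change of 0.29 (SE 0.37). KO replicate 1 lay inside the WT range and KO replicate 2 just above it, and against WT replicate 2 alone the fold change was −0.01. In CPM of the library total, Ptgs1 stood at 7.24 and 7.72 in KO, against 1.80 and 6.94 in WT, without overlap. Within a library, where scaling plays no part, Ptgs2 made up 91.7% of the reads of both cyclooxygenase genes in KO replicate 1 (exact 95% interval 90.2 to 93.1) and 90.3% in KO replicate 2 (88.7 to 91.7). It made up 3.33% in WT replicate 1 (0.0844 to 17.2) and 5.34% in WT replicate 2 (2.18 to 10.7). The KO and WT intervals did not overlap, but they cover counting error only and not the spread between samples. They are no test of these members. Neither gene overlaps another gene of the table.

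The promoters of both genes are shown because their transcripts moved so differently. Each sequence is the 250 bases before the RefSeq start site (GRCm38.p6, the assembly that mm10 stands for), 5′ to 3′ on the gene's strand. The windows are chr1:150099781-150100030 for Ptgs2 and chr2:36230176-36230425 for Ptgs1. Capitals mark matches to 6 motifs searched on both strands: C/EBP (TTNNGNAA), the GC box (GGGCGG), the CRE core (CGTCA), the TATA box (TATAAA), the E-box (CACGTG) and the NF-kB consensus.
Ptgs2: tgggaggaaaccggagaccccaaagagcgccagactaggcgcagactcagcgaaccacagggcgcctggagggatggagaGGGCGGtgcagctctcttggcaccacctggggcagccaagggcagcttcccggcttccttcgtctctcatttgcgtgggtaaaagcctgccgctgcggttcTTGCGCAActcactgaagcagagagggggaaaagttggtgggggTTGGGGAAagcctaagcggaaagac
Ptgs1: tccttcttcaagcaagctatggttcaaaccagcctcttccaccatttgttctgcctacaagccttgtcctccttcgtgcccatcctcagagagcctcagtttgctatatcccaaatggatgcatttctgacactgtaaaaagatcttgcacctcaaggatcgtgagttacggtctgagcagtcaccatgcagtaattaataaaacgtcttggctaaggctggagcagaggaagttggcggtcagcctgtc

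The Ptgs2 window held the C/EBP letters at −69 to −62 (TTGCGCAA, which reads the same on both strands) and at −25 to −18 (TTGGGGAA), counted from the start site, and a GC box at −170 to −165. The Ptgs1 window held none of the 6 motifs. RefSeq windows were found for 8 of the 10 genes. The C/EBP letters occurred in 5 of these 8 and in 36.8% of all 32851 windows of the same length, and the GC box in 5 of 8 and in 32.7%. The NF-kB consensus occurred in 1 of 8 windows, that of Ptgds, and in 7.25% of all, while the CRE core, the TATA box and the E-box occurred in 0 of 8, against 17.8%, 12.4% and 6.02% of all windows. A match is a description of the letters and does not show that a factor binds there. The RefSeq start sites can differ from the starts of the deposited genes. The Ptgs2 window ends at 150100030, while the deposited gene begins at 150100124. The Ptges window, 30903298 to 30903547, lies inside the deposited span of that gene. Bases outside the windows were not searched, so a motif missing from a window may still be near the gene.

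The few WT reads of Ptgs2 were also short. The aligned length per read, computed as the deposited average coverage times the gene's length over its reads, was 76.0 and 75.1 bases for Ptgs2 in KO, against 25 and 37.1 bases in WT. Over genes with at least 100 reads the median was 76.0 and 73.5 bases in KO, and 96.6 and 77.9 bases in WT. Short alignments were common among genes with few reads: of genes with 1 read in WT replicate 1, 43.9% had at most 25 bases, and of genes with 7 reads in WT replicate 2, 33.9% had at most the 37.1 bases of Ptgs2. The 3 reads of Ptger2 in WT replicate 1 averaged 22 bases.

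Of the terminal synthases among the members, Ptges and Ptgis had fitted fold changes below 1 in size on the TMM scale. Ptges, the inducible PGE2 synthase (chromosome 2, 30889471 to 30929863, minus strand), had 303 and 325 reads in KO, against 106 and 166 reads in WT. Its level was 15.2 and 12.5 CPM in KO, against 12.8 and 7.92 CPM in WT, and the groups overlapped. The fold change was 0.43 (SE 0.34), 0.81 against WT replicate 2 alone and 0.10 against WT replicate 1 alone. In CPM of the library total, Ptges stood at 19.4 and 16.2 in KO, against 6.57 and 9.29 in WT. With that scaling the groups did not overlap, and the fold change was 1.16. With either scaling the fold change was smaller than that of Ptgs2, which makes the substrate of Ptges. The difference between them was not tested.

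Ptgis, prostacyclin synthase (chromosome 2, 167191805 to 167240604, minus strand), had 20 and 29 reads in KO, against 14 and 34 reads in WT. The level was 1.06 ± 0.0787 CPM in KO and 1.66 ± 0.0488 CPM in WT (SD, n = 2 each), with both KO libraries below both WT libraries. Its fold change was −0.63 (SE 0.34), −0.60 against WT replicate 2 alone and −0.68 against WT replicate 1 alone. When libraries were scaled by their totals alone it was −0.03, and the groups overlapped. Ptgds, lipocalin-type PGD2 synthase (chromosome 2, 25466709 to 25470046, minus strand), had 4 and 0 reads in KO, against 0 and 22 reads in WT. WT replicate 2 was high and the other 3 libraries were at or near 0, so the groups overlapped. At 0 reads the limit is 3 reads, which is 0.149 CPM of the total in KO replicate 2 and 0.186 in WT replicate 1.

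Hpgd had the largest negative fold change among the 9 members tested. The gene (chromosome 8, 56294552 to 56321046, plus strand) had 47 and 42 reads in KO, against 67 and 291 reads in WT. Its level was 2.364 and 1.618 CPM in KO, against 8.09 and 13.9 CPM in WT, without overlap between the groups. The fold change was −2.47 (SE 0.44), −2.82 against WT replicate 2 alone and −2.06 against WT replicate 1 alone. In the authors' deposited table, which lists 5511 genes with an unadjusted p under 0.05, Hpgd stands at a log2 fold change of −2.60 and Ptgs2 at 8.16. These were the 2 of the 10 members that it lists, beside 5511 genes listed in all, while 38087 genes have deposited read counts. The listing is no test of the members.

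The reads of the PGE2 synthase and of the PGE2-inactivating enzyme can be set against each other within a library. Ptges made up 86.6% of the reads of Ptges and Hpgd in KO replicate 1 (exact 95% interval 82.5 to 90.0) and 88.6% in KO replicate 2 (84.8 to 91.6). It made up 61.3% in WT replicate 1 (53.6 to 68.6) and 36.3% in WT replicate 2 (31.9 to 40.9). Both KO shares lay above both WT shares, and the intervals of the WT libraries did not overlap each other. These 2 genes differ in length, so a share compares libraries and not the genes' levels.

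**Figure D2:**
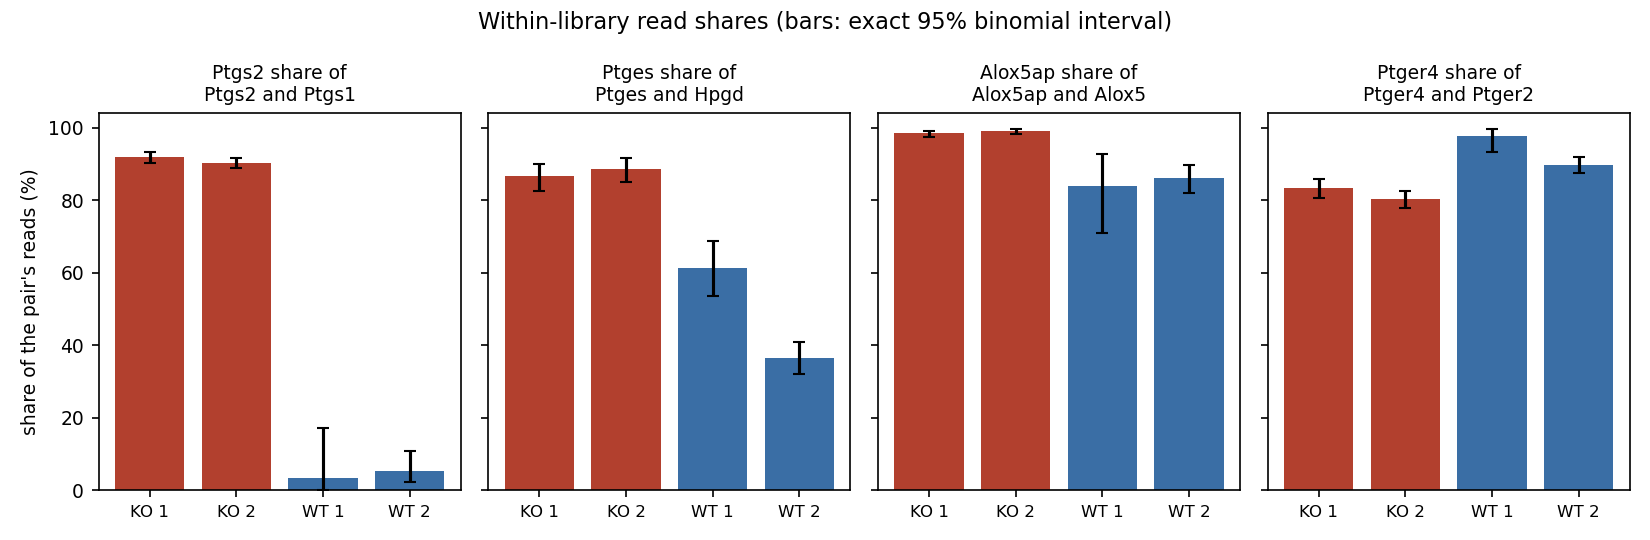
Bars give, within each library, the share of a gene pair's reads (in percent, from 0) taken by the first gene named, for KO (red) and WT (blue) libraries, and error bars are exact 95% binomial intervals for counting error only. Ptgs2 took 91.7% and 90.3% of the cyclooxygenase reads in KO, against 3.33% and 5.34% in WT.

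For both PGE2 receptor genes the WT libraries differed from each other, the first being lower. Ptger4, encoding EP4 (chromosome 15, 5206661 to 5244187, minus strand), had 673 and 868 reads in KO, against 123 and 713 reads in WT. Its level was 33.9 and 33.4 CPM in KO, against 14.9 and 34.0 CPM in WT. In CPM of the library total it stood at 43.1 and 43.3 in KO, against 7.62 and 39.9 in WT, without overlap. WT replicate 1 alone was low: the fold change was 0.46 (SE 0.45) with both WT libraries, −0.01 against WT replicate 2 and 1.16 against WT replicate 1.

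Ptger2, encoding EP2 (chromosome 14, 44988195 to 45003820, plus strand), had 136 and 214 reads in KO, against 3 and 81 reads in WT. Its level was 6.84 and 8.25 CPM in KO, against 0.362 and 3.86 CPM in WT, without overlap. The fold change was 1.74 (SE 0.99), 0.98 against WT replicate 2 and 4.34 against WT replicate 1, which had only 3 reads. Ptger4 made up 83.2% and 80.2% of the reads of both receptor genes in KO, against 97.6% and 89.8% in WT, so its share was lower in both KO libraries. The whole span of Ptger2 is also covered by Gm17173 on the opposite strand, which had 173 and 246 reads in KO, against 5 and 158 in WT. Ptger4 shares 11676 bases with Ttc33 on the opposite strand, which had 303 and 374 reads in KO, against 124 and 387 in WT. The strand setting of the counting was not stated by the authors' files or labels, so reads of these pairs may not be told apart.

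The pair of leukotriene genes pointed in opposite directions. Alox5ap (chromosome 5, 149265058 to 149288045, plus strand) had 894 and 1146 reads in KO, against 42 and 279 reads in WT. Its level was 45.0 and 44.2 CPM in KO, against 5.07 and 13.3 CPM in WT, without overlap. The fold change was 2.26 (SE 0.52), 1.75 against WT replicate 2 and 3.12 against WT replicate 1.

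Alox5 itself (chromosome 6, 116410077 to 116461178, minus strand) had 15 and 12 reads in KO, against 8 and 45 reads in WT. Its level was 0.755 and 0.462 CPM in KO, against 0.966 and 2.15 CPM in WT. On this scale both KO libraries lay below both WT libraries, the nearer one by little. The fold change was −1.42 (SE 0.57), −1.84 against WT replicate 2 and −0.71 against WT replicate 1. In CPM of the library total, Alox5 stood at 0.961 and 0.598 in KO, against 0.496 and 2.52 in WT. With that scaling the groups overlapped, and the fold change was −0.96. There were 59.6 and 95.5 Alox5ap reads per Alox5 read in KO, against 5.25 and 6.20 in WT. Both KO ratios were above both WT ratios. The genes differ in length, so the ratio compares libraries and not the genes' levels.

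**Figure D3:**
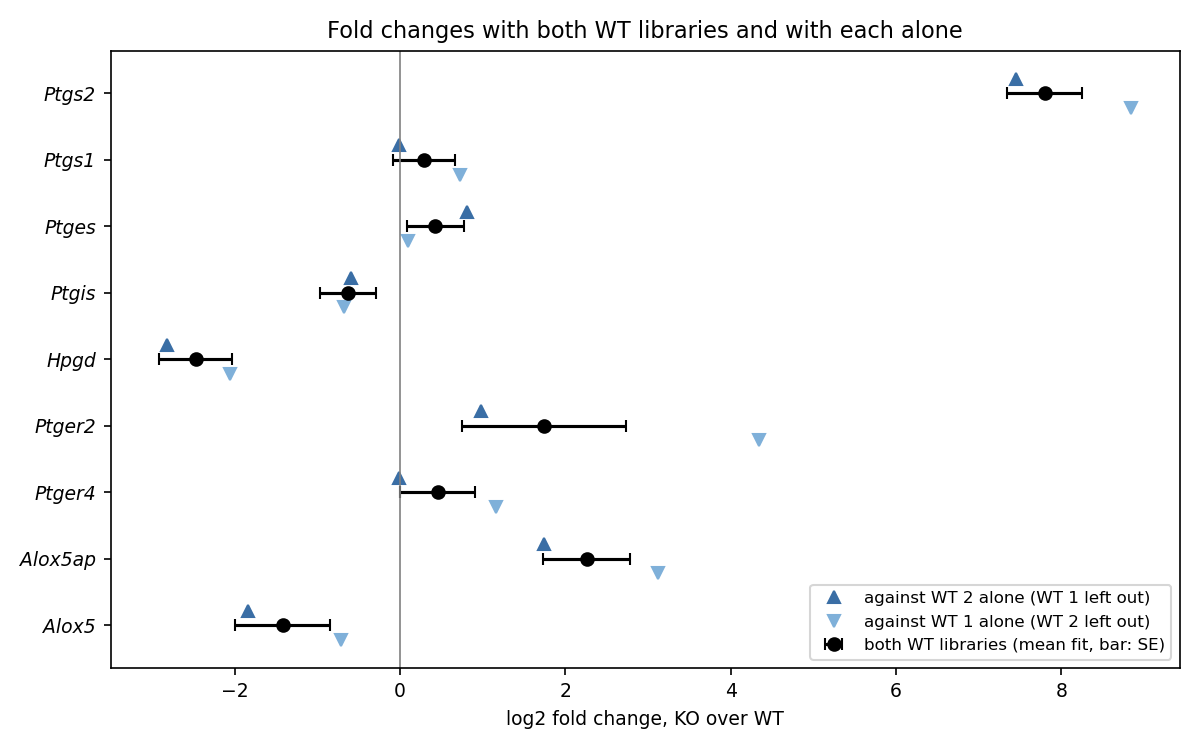
Black points give the log2 fold change, KO over WT, of the 9 tested genes with all 4 libraries (bars: SE); triangles give it against WT replicate 2 alone (pointing up) or WT replicate 1 alone (pointing down). Ptgs2 stayed between 7.45 and 8.85, whereas Ptgs1 and Ptger4 were at −0.01 against WT replicate 2.

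Per kilobase of merged exons (GENCODE M21, GRCm38), the order of levels in KO was led by Alox5ap at 31.4 ± 0.405 CPM per kb and Ptgs2 at 13.0 ± 1.17 (SD, n = 2). Ptger4 followed at 5.06 ± 0.0434, Ptges at 3.53 ± 0.489, Ptgs1 at 1.501 ± 0.0525, Ptger2 at 1.45 ± 0.191 and Hpgd at 1.18 ± 0.313. Ptgis stood at 0.414 ± 0.0307, Alox5 at 0.148 ± 0.0503 and Ptgds at 0.0610 ± 0.0863. Among neighbours in this order, the mean ± SD ranges of Ptgs1 and Ptger2 overlapped, as did those of Ptger2 and Hpgd and of Alox5 and Ptgds. In WT the order was led by Hpgd at 6.53 ± 2.43 CPM per kb and Alox5ap at 6.47 ± 4.10, which did not differ beyond their spread, and Ptgs2 was last at 0.0496 ± 0.0329. The deposited gene length is the whole genomic span, and whether reads in introns were counted is not stated, so these values order the genes only roughly.

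The 5 genes whose profile over the 4 libraries was nearest that of Ptgs2 were Nos2, Saa3, F10, Gpnmb and Eif2s3y, at root mean square differences of 0.0923 to 0.268 on the centred log2 CPM scale. Nos2, the inducible nitric oxide synthase, had 372 and 294 CPM in KO, against 1.21 and 2.67 CPM in WT. Eif2s3y, a Y-linked gene, had 38.6 and 41.7 CPM in KO, against 0.121 and 0.286 CPM in WT, so the sex of the mice may go with the groups as well. Over 4 libraries such a likeness reflects little beyond the split between the groups. For Alox5, the nearest profiles were those of Olfml2b, Gdf10, Xlr3b, Dab2 and Muc6, at differences of 0.103 to 0.134.

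The rest of the pathway was read from a list of 52 further eicosanoid genes by role, all matched in the table. Of these, 43 passed the filter. Past the adjusted p threshold 4 rose and 1 fell, and 38 were not called, beside 1.04% higher and 2.18% lower among all genes tested. For these genes, rose and fell are used only for changes past that threshold. The median fold change was 0.51, beside 0.01 over all genes tested. The 4 that rose were Pla2g7, Pla2g4a, Tbxas1 and Dpep2, and the one that fell was Cbr1. Against WT replicate 2 alone and WT replicate 1 alone, the fold changes were 4.45 and 5.01 for Pla2g7, 2.83 and 3.14 for Pla2g4a, and 3.30 and 2.94 for Tbxas1. They were 3.10 and 3.64 for Dpep2 and −1.92 and −2.42 for Cbr1.

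Upstream of the cyclooxygenases, 2 of 11 tested phospholipases A2 rose. Pla2g4a, the cytosolic phospholipase A2 that releases arachidonic acid, had 45.7 and 48.8 CPM in KO, against 5.31 and 6.68 CPM in WT (log2 fold change 2.97, SE 0.24, edgeR adjusted p = 0.0435, higher in 2 of 2 KO libraries). Pla2g4a lies on chromosome 1, from 149829618 to 149961290, next to the region of Ptgs2. Pla2g7, which breaks down platelet-activating factor rather than releasing arachidonic acid, had 325 and 334 CPM in KO, against 10.1 and 15.1 CPM in WT (4.70, SE 0.37, adjusted p = 0.0435). Pla2g7 overlaps 1700071M16Rik on the opposite strand, which had 858 and 1246 reads in KO and 12 and 31 in WT, against 6463 and 8666 reads of Pla2g7 in KO and 84 and 316 in WT.

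Among 6 further prostanoid synthase genes, 1 rose and 1 fell. Tbxas1, thromboxane A synthase, had 44.8 and 48.6 CPM in KO, against 6.04 and 4.77 CPM in WT (3.12, SE 0.24, adjusted p = 0.0435); it shares 762 bases with Hipk2 on the opposite strand. Tbxas1 took 74.6% and 79.5% of the reads of Tbxas1 and Ptges in KO, against 32.1% and 37.6% in WT. Cbr1, a carbonyl reductase that can act on prostaglandins, had 10.01 and 11.02 CPM in KO, against 55.68 and 39.97 CPM in WT (−2.18, SE 0.26, adjusted p = 0.0480). Hpgds, the haematopoietic PGD2 synthase, was at 17.0 and 17.1 CPM in KO and 5.43 and 6.73 CPM in WT (1.48, SE 0.25, adjusted p = 0.0651) and did not pass.

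None of the 7 prostanoid receptors beyond EP2 and EP4 passed. The smallest p was that of Ptgir, the prostacyclin receptor gene, with 18.6 and 17.7 CPM in KO, against 2.42 and 4.67 CPM in WT (2.33, SE 0.40, adjusted p = 0.0678). Ptgdr, encoding the PGD2 receptor DP1, had 2 and 1 reads in KO, against 37 and 552 reads in WT, which is 0.101 and 0.0385 CPM in KO, against 4.47 and 26.3 CPM in WT (−7.74, SE 1.35, edgeR adjusted p = 0.0683). It did not pass, and the WT libraries differed widely, the second being the higher. Of the 4 genes of transport and inactivation 0 passed, the smallest p being that of the prostaglandin transporter gene Slco2a1 (1.33, SE 0.36, adjusted p = 0.126).

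In the leukotriene branch 1 of 9 tested enzymes rose. Dpep2, a membrane dipeptidase that converts leukotriene D4 to E4, had 11.2 and 13.2 CPM in KO, against 0.966 and 1.43 CPM in WT (3.30, SE 0.35, adjusted p = 0.0456); it shares 5087 bases with Dus2l on the opposite strand. Lta4h, which makes leukotriene B4, was at 47.1 and 49.5 CPM in KO and 36.5 and 56.8 CPM in WT, with a fold change of 0.05 (SE 0.29). Of 3 tested leukotriene receptors none passed; Cysltr2 had 54 and 84 reads in KO, against 0 and 13 in WT (2.93, SE 0.98, adjusted p = 0.166). Of 3 tested lipoxygenases other than Alox5 none passed either. Alox15 had 94 and 107 reads in KO, against 0 and 10 in WT (3.85, SE 0.94, adjusted p = 0.105), while Alox12 had 23 and 12 reads in KO, against 418 and 126 in WT (−5.13, SE 1.34, adjusted p = 0.116).

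**Figure D4:**
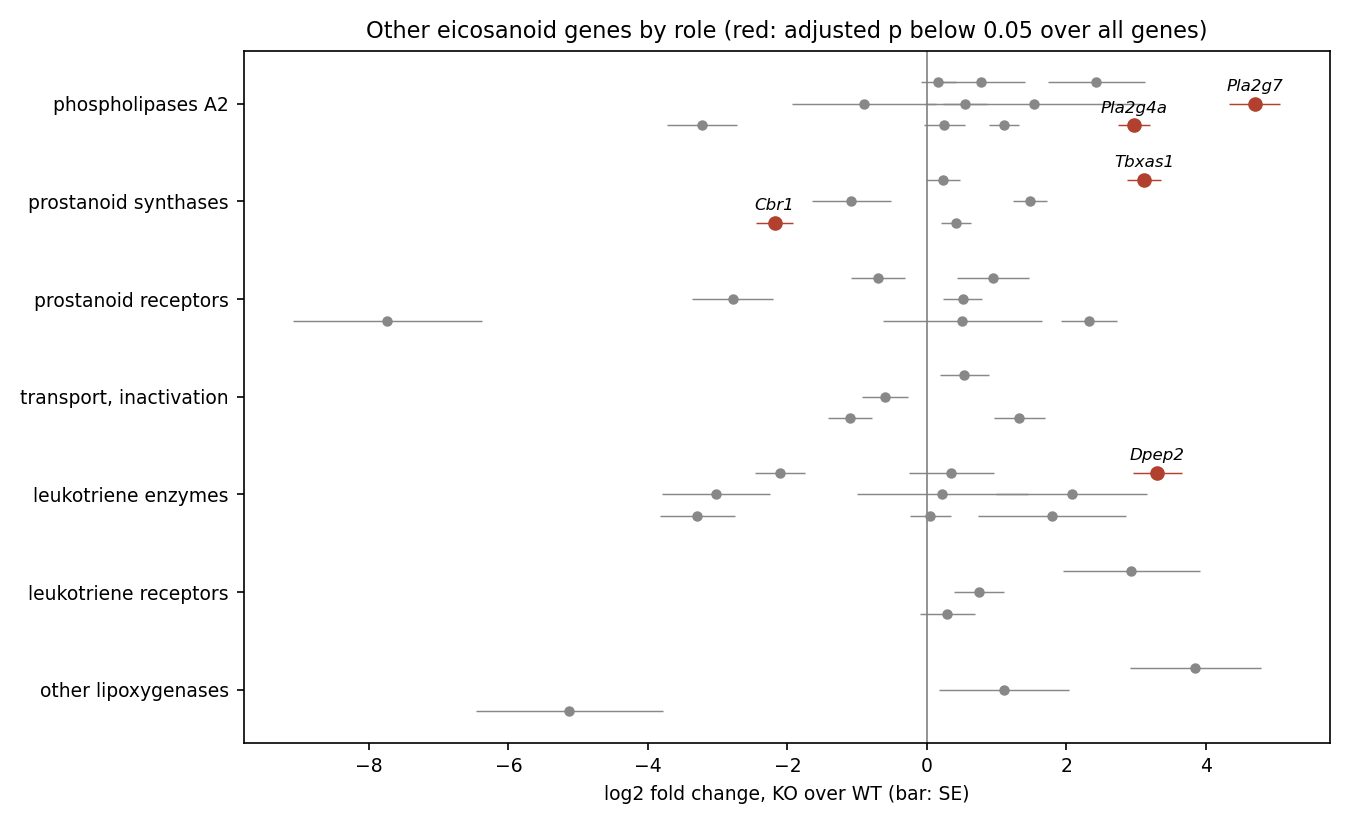
Each point is 1 of the 43 tested eicosanoid genes outside the 10 members, placed by role (rows, spread vertically for legibility) and log2 fold change, KO over WT (horizontal axis; bars: SE), with the 5 genes called over all genes in red and named. Pla2g7 at 4.70 and Cbr1 at −2.18 are the outermost red points.

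With KO replicate 1 left out, and likewise with KO replicate 2 left out, the edgeR test called 0 of the further eicosanoid genes and 0 genes in all, with unadjusted p under 0.05 for 732 higher and 1318 lower genes without KO replicate 1, and 743 and 1342 without KO replicate 2; DESeq2 on all 4 libraries called 1325 and 2430. The fold change of Ptgs2 was then 7.75 and 7.93. The 5 further eicosanoid genes called kept the direction of their fold change when either WT library was left out. Such a fit leaves 1 WT library, so it cannot show that a call holds. All 5 calls were lost with library totals alone and with the replicate block.

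Markers of the cell types that could carry these transcripts moved too, and their part in the results was not tested. Summed in CPM of the total, 8 monocyte and macrophage markers stood at 1163 and 1136 in KO, against 99.1 and 910 in WT, with none at 0 reads. Lyz2 alone made up 666 of the sum in WT replicate 2, against 166 and 188 in KO. The other 7 were each higher in both KO libraries than in both WT libraries: Csf1r stood at 550 and 490 in KO, against 25.6 and 140 in WT, and Cd68 at 196 and 200.4 in KO, against 4.96 and 32.3 in WT. The 8 neutrophil markers stood at 99.8 and 108 in KO, against 2.23 and 27.3 in WT, where S100a8, S100a9, Ly6g and Retnlg were at 0 in WT replicate 1. Csf3r made up 74.8 and 79.8 of the KO sums, against 1.49 and 10.6 in WT, whereas Cxcr2 stood at 3.20 and 4.39 in KO, against 0.248 and 5.65 in WT. Mast cell markers, 8 in all, stood at 47.6 and 49.4 in KO, against 17.5 and 111 in WT. The members of this list differed: the protease gene Tpsb2 had 4 and 4 reads in KO, against 3 and 404 in WT, whereas Hdc had 122 and 127 reads in KO, against 11 and 50 in WT. Kit stood at 35.8 and 37.6 CPM of the total in KO, against 15.5 and 27.1 in WT. On the TMM scale Kit stood at 28.1 and 29.1 CPM in KO, against 30.2 and 23.1 in WT, and the groups overlapped. Fcer1a was at 0 in both KO libraries and in WT replicate 1, and Cma1 was at 0 in WT replicate 1.

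The 7 platelet and megakaryocyte markers, cells known for Ptgs1 and Tbxas1, summed to 19.4 and 16.4 in KO, against 3.22 and 27.9 in WT, with Gp6 at 0 in WT replicate 1 and Gp9 at 0 in WT replicate 2. Fibroblast and reticular stroma markers summed to 1077 and 891 in KO, against 222 and 326 in WT, and endothelial markers to 322 and 257 in KO, against 66.0 and 403 in WT. Smooth muscle and myoepithelial markers summed to 149 and 117 in KO, against 433 and 683 in WT. All 6 were lower in both KO libraries than in both WT libraries, and 4 of them passed the adjusted p threshold.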

How the data were processed

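Ribosome-depleted total RNA was read on Ion Torrent, per the labels. The authors deposited raw counts of reads for each gene and, per the file headers, the average coverage of each gene. They also deposited log2 values centred on each gene's median and a comparison table of log2 fold changes with unadjusted p-values. The build mm10 and DESeq2 1.62 appear, with no role given, per the submitters' processing notes; aligner and counter: not given in the sources used here. Gene length as listed is the whole genomic span. The other 4 columns of per-sample values were not used.

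The test was the quasi-likelihood F test of edgeR 4.0.16 (R 4.3.3; TMM; filterByExpr, minimum count 10 and total 15), checked on simulated data, with Benjamini-Hochberg adjustment at 0.05. The simulated data gave both groups the same spread, so that check does not cover the wider spread between the WT libraries here. Log2 CPM correlated at 0.857 between the WT libraries and at 0.988 between the KO libraries. SE is the fold change over the root of F. Profiles used log2 CPM with a prior count of 2. Alternatives were DESeq2 size factors, library totals, no filter, a stricter filter (1 CPM in 2 libraries, 20 reads in all), DESeq2 1.42.0, limma-voom 3.58.1, a replicate block and each library left out. Intervals are exact (Clopper-Pearson) at 95%; they and the floors cover counting error only.

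The members, lists and tests were chosen with earlier results of these data known. Named were all members, the further eicosanoid genes past the threshold and, per role, the one with the smallest p, and the 5 profiles nearest Ptgs2 and Alox5. Hpgds, Ptgdr, Lta4h, Alox12, single marker genes and overlapping genes were named after their values were seen.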

Additional observations from a re-analysis of the deposited data

How the results depend on the processing

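The genes called higher and lower over the whole table numbered 216 and 451. They numbered 0 and 0 with library totals alone, which moved the median of all genes from 0.01 to 0.60 on the log2 scale, and 0 and 0 with the replicate block. There were 542 and 1188 without a count filter and 1325 and 2430 with DESeq2. With 1 library left out the counts ranged from 0 to 6887 higher and from 0 to 6922 lower, both 0 without either KO library. At those 0 counts, edgeR gave unadjusted p-values under 0.05 for 1472 and 1505 genes with library totals, 1866 and 2734 with the block, 732 and 1318 without KO replicate 1, and 743 and 1342 without KO replicate 2. With a WT library left out, that group has 1 library, which is assumed to vary like the KO group, so the spread within WT does not enter those calls.

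Of the further eicosanoid genes, 4 were called higher and 1 lower. With library totals and with the replicate block both counts were 0, with DESeq2 they were 11 and 8, and without a filter 5 were lower. Leaving out 1 library gave 0 to 25 higher and 0 to 12 lower. Replicate numbers are only names in the labels; deviations of same-numbered libraries correlated at −0.108 over genes. The crossed pairing, added after seeing the data, gave 202 higher and 643 lower, and 4 and 2 of the eicosanoid genes; Cbr1 lost its call there, so the 2 lower genes were others.

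Ptgs2 kept its direction in all 12 alternatives, between 7.45 and 8.85. Members past the threshold numbered 1 higher and 0 lower, and 0 and 0 with library totals and with the replicate block. Without a filter they numbered 1 and 1, beside 542 and 1188 of all 30898 genes tested. With DESeq2 they numbered 2 and 1, beside 1325 and 2430 of all 20695. These counts are a description only. With 1 library left out, the fold change of Ptgs1 ranged from −0.0142 without WT replicate 1 to 0.720 without WT replicate 2, and that of Ptger4 from −0.0104 to 1.16. For calls that were lost or gained the cause was not tested. Members under 30 reads in a library, such as Alox5, Ptgis, Ptgds, Ptgs2 and Ptger2, are limited by depth. Against WT replicate 1 alone, the fold change of Ptgs2 rests on 1 WT read and that of Ptger2 on 3 WT reads.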
